A study of Mus musculus with 10 samples.

Results

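Promoters are the stretches of DNA around the start sites of genes, where general factors assemble and RNA polymerase begins transcription. Here they were taken as 500 bp on each side of the transcription start site of every protein-coding transcript on chromosomes 1 to 19 (mouse build mm10, GENCODE release M21), with 1 window for each distinct start. The 56327 transcripts gave 52101 promoters of 20757 genes, of which 13075 genes had several start sites. Neighbouring starts share sequence and often a peak, and merging overlapping windows left 29596 stretches, so the promoters are not independent of one another. Joined over 9 peak lists, the series held 154878 accessible stretches on these chromosomes, of which 16529 overlapped a promoter. At least 1 library called 35387 of the 52101 promoters.

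ATAC-seq marks open chromatin, since the Tn5 transposase inserts its adapters where DNA is not wrapped in nucleosomes. In mammals most promoters lie in CpG islands, which carry many CpG dinucleotides, are mostly free of DNA methylation and are accessible in nearly all cell types. CpG-poor promoters, often with a TATA box at a set distance from the start, tend to belong to genes used by few cell types. The epicardium is the mesothelial lining of the heart. Some of its cells undergo epithelial-mesenchymal transition and enter the myocardium as epicardium-derived cells (EPDCs), which give rise to fibroblasts and to mural cells, the smooth muscle cells and pericytes of vessels.

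All samples were sorted from hearts of C57BL/6J embryos of the genotype Rosa26tdTomato;Wt1CreERT2/+, in which tamoxifen at E9.5 switched on tdTomato in cells expressing *Wt1* and hence in their descendants. Epicardial cells were CD31-tdTomato+PDPN+, with 3 libraries at E11.5 (6 pooled hearts each) and 3 at E17.5 (4 pooled hearts each). EPDCs were CD31-tdTomato+PDPN-, having lost surface podoplanin (PDPN), with 1 library at E12.5 and 2 at E13.5 (4 to 13 pooled hearts), of which E13.5 sample 2 was a single peak list of 2 technical replicates. The label is that of any cell that expressed *Wt1* when tamoxifen acted. The gates remove CD31-positive endothelium and not every other cell type. No EPDC library came from E11.5 or E17.5, and no epicardial library from E12.5 or E13.5, so population and embryonic day cannot be told apart in the comparison of EPDCs with epicardium.

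The lists held 73606 to 106836 peaks on these chromosomes, and the read depth behind them is unknown. A promoter was called in a library when a peak overlapped its window by at least 1 bp. Its level in a library was the rank percentile, from 0 to 100, of the strongest peak over it (by −log10 p, among all peaks of that list), with 0 for no peak. Absence of a peak says that the signal missed the caller's threshold, not that the chromatin was closed. All 3 EPDC lists, and none of the 6 epicardial lists, also held peaks on unplaced sequence (58 to 80) and on the mitochondrial genome (3 to 7). On chromosome Y the EPDC lists held 35 to 63 peaks, the E11.5 lists 3 to 5 and the E17.5 lists 2 each. Whether the sets of lists were made in the same way was not tested. Marker promoters could check the labels only in part. Of 15 epicardial genes, 11 had a promoter called in all 9 libraries, among them *Wt1*, *Tcf21* and *Tbx18*, beside 64.5% of all genes. Of 11 endothelial genes, *Pecam1*, *Cdh5*, *Tie1* and *Emcn* had no peak in any library. *Kdr*, *Tek*, *Flt1*, *Cldn5*, *Sox17* and *Sox18* had a promoter called in all 9. Of 9 genes of blood cells, 8 had no peak, *Ptprc*, *Csf1r* and *Spi1* among them, beside 26.9% of all genes.

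Promoters that stand for each pattern are printed from the RefSeq sequences of the mm10 assembly, which held 8889 of the 52101 promoters. Each line gives the 200 bases before the start site, 5′ to 3′ on the strand of the gene, with every CpG in capitals. *Ap2a1* (chr7:44929491-44929690, minus strand), a subunit of the clathrin adaptor, was the matched promoter with the highest rank shared by all 9 libraries. *Nanog* (chr6:122707289-122707488, plus), a pluripotency factor, was called in none. *Upk3b* (chr5:136038296-136038495, plus) encodes a uroplakin of mesothelium. *Plet1* (chr9:50494325-50494524, plus) ranked higher at E17.5 and *Gucy2d* (chr7:98440216-98440415, plus) lower. *Acoxl* (chr2:127854428-127854627, plus) ranked higher in EPDCs and *Neu2* (chr1:87594350-87594549, plus) lower.
Ap2a1: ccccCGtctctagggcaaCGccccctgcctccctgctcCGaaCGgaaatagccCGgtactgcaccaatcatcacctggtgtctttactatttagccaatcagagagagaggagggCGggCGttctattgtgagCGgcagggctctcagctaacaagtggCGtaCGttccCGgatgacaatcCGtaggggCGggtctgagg
Nanog: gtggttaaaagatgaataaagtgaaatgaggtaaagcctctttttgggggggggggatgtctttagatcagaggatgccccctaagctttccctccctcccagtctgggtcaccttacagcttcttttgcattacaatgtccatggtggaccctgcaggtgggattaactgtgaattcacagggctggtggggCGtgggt
Upk3b: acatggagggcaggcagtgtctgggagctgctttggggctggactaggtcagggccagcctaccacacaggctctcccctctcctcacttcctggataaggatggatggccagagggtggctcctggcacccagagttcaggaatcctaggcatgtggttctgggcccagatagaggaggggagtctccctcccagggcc
Plet1: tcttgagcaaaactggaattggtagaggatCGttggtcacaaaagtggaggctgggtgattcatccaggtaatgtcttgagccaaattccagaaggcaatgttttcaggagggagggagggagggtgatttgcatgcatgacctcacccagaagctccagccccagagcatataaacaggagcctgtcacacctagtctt
Gucy2d: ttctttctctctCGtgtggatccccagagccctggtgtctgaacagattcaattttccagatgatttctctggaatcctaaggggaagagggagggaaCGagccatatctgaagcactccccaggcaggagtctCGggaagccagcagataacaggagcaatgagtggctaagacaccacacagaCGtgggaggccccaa
Acoxl: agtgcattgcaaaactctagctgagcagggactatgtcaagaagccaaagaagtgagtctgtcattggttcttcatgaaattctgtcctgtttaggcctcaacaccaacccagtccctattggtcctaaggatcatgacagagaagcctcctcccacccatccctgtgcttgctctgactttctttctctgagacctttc
Neu2: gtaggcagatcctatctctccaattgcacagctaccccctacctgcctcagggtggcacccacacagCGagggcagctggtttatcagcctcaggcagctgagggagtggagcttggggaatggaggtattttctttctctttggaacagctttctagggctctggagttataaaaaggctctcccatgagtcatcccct
The *Ap2a1* stretch held 13 CpGs, that of *Gucy2d* 4, those of *Nanog*, *Plet1* and *Neu2* 1 each, and those of *Upk3b* and *Acoxl* 0. The TATA box (TATAAA) began at position -30 in *Plet1* and at -31 in *Neu2*, counted from the start site at 0.

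Most promoters were called either everywhere or nowhere. All 9 libraries called 30556 promoters, 58.6% of those measured, and none called 16714, or 32.1%. The remaining 4831 were spread thinly over 1 to 8 libraries, with 354 to 1333 at each number. By their most often called promoter, 13395 of the 20757 genes (64.5%) were called in all 9 libraries and 5592 (26.9%) in none. The share called per library lay between 60.9% and 64.9%.

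**Figure D1:**
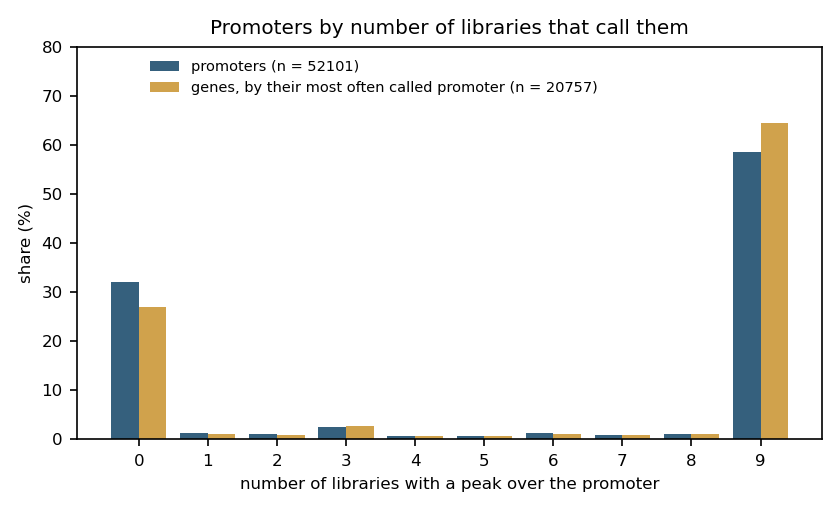
Share of promoters, and of genes by their most often called promoter, by the number of libraries (0 to 9) with a peak over the promoter. The tall bars stand at 0 libraries (32.1% of promoters) and at 9 (58.6%), with at most 2.56% of promoters at any number between them.

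CpG content differed strongly between these classes. A promoter was counted as CpG-high with an observed over expected CpG ratio of at least 0.6 and a GC content of at least 50%, and as CpG-low with a ratio under 0.4. Of 22646 CpG-high promoters, 96.0% were called in all 9 libraries and 0.389% in none. Of 21726 CpG-low promoters, 13.7% were called in all 9 and 72.0% in none. The share called in all 9 was 1.23% at ratios under 0.1, 32.7% between 0.3 and 0.4, and 85.8% between 0.5 and 0.6. The median ratio was 0.728 among promoters called in all 9, 0.308 among those called in 1 to 8, and 0.186 among those called in none, so those in between lay nearer to the uncalled. These shares describe the promoters and were not tested, since neighbouring promoters share windows and peaks.

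**Figure D2:**
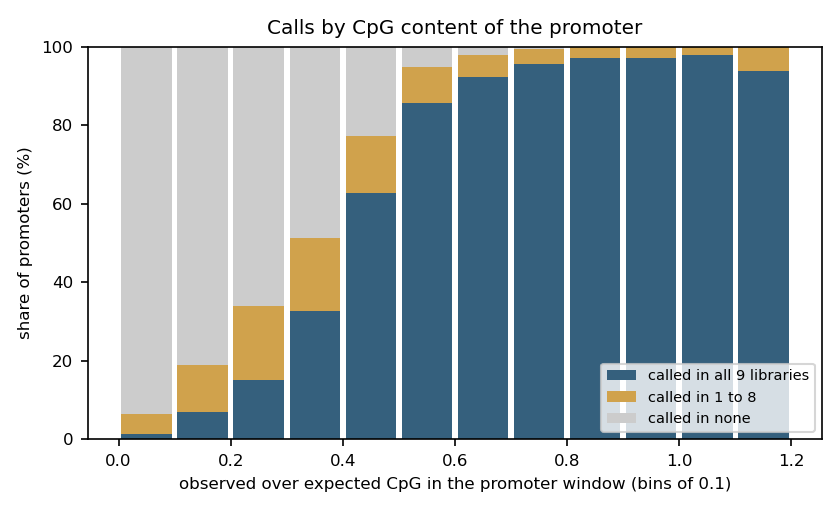
Stacked shares of promoters called in all 9 libraries, in 1 to 8 and in none, by observed over expected CpG ratio of the 1001 bp window in bins of 0.1 (the 2 promoters above 1.2 are not drawn). The share called in all 9 climbs from 1.23% in the first bin to 97.9% between 1.0 and 1.1.

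Short motifs, searched on both strands in the 250 bases before and the 50 after the start, followed the same division. The GC box (GGGCGG), bound by Sp factors, was present in 65.7% of promoters called in all 9, 29.1% of those called in 1 to 8 and 6.99% of those called in none, against 43.5% of all promoters. The ETS motif (CCGGAAG) was present in 16.5%, 5.63% and 2.11%, against 10.9% of all. The TATA box went the other way, with 5.44%, 11.1% and 22.1%, against 11.3% of all. So did the AP-1 motif (TGANTCA), with 4.37%, 8.28% and 9.93%, and the GATA motif (AGATAA), with 5.55%, 11.1% and 16.7%. The CCAAT box hardly differed, at 34.6%, 35.7% and 37.3%. Motif letters and base composition go together, since GC-rich motifs occur more often in GC-rich windows, and motifs were not tested apart from it. Of 4551 head-to-head promoters, with another gene starting within 1000 bp on the opposite strand, 93.8% were called in all 9. Of 807 with a TATA box starting at -40 to -20, 27.9% were.

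Where promoters were called, their peaks ranked high. Promoters took 14.3% to 19.7% of the peaks of a library but 64.3% to 79.8% of its top 10% by −log10 p. The median percentile of peaks at promoters was 86.0 to 89.7, and that of other peaks 42.0 to 44.4. Promoter peaks were also wider, with medians of 964 to 1191 bp against 420 to 562 bp, and their median fold enrichment over local background was 10.2 to 15.1 against 5.38 to 6.54. For each of these measures the ranges over the 9 libraries did not overlap. Wide peaks overlap a window more readily than narrow ones. Of the promoters called in a library, 85.8% to 87.4% had the strongest summit of their peak inside the window.

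The summits sat just upstream of the start. Over 12982 genes whose strongest principal promoter was called in all 9 libraries, the median summit lay -11 to -26 bp from the start, and 48.8% to 53.1% of summits lay within 100 bp of it. E11.5 replicate 1 stood apart, with the median nearest to the start (-11) and the lowest share upstream (52.7%, against 54.7% to 58.0% in the other libraries).

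**Figure D3:**
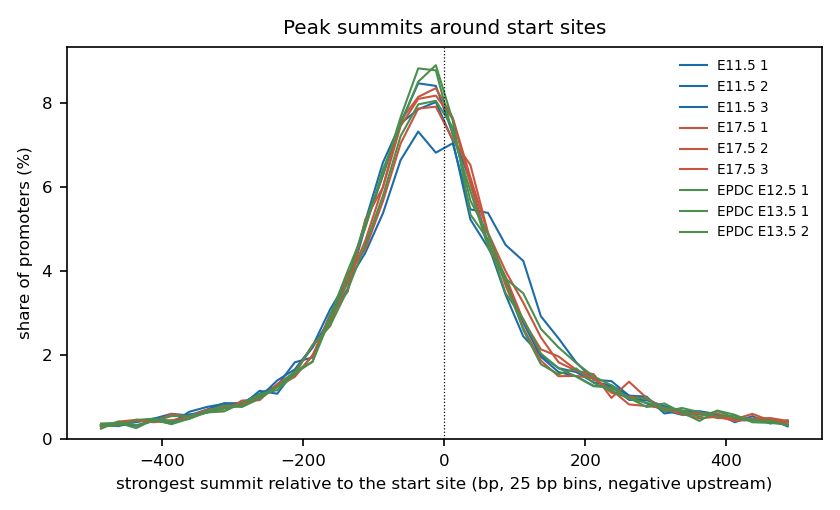
Position of the strongest summit relative to the start site, in 25 bp bins, as a share of 12982 promoters in each library (blue E11.5, red E17.5 epicardium, green EPDCs). All 9 curves peak within 50 bp upstream of the start, and that of E11.5 replicate 1 is lower there and higher downstream.

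Some gene families lay far from the share of all promoters, of which 58.6% were called in all 9 libraries and 32.1% in none. Ribosomal protein genes had 191 of 216 promoters (88.4%) called in all 9 libraries, and subunits of mitochondrial complex I 78 of 88 (88.6%). Proteasome genes had 80 of 106 (75.5%) and zinc finger genes named Zfp 789 of 1064 (74.2%). At the other end, 2474 of 2514 olfactory receptor promoters (98.4%), 498 of 501 vomeronasal, 47 of 48 beta-defensin and 53 of 61 keratin-associated protein promoters were called in none. The clustered protocadherins, of which each neuron uses a few, had 46 of 71 promoters (64.8%) called in none, against 14 (19.7%) in all 9. Hox clusters, with 31 of 62 (50%) in all 9 and 12 (19.4%) in none, lay nearer to all promoters. Histone clusters had 39 of 71 (54.9%) in all 9, near the share of all promoters, but only 4 (5.63%) in none. Of 15 germline genes, 13 had no called promoter, beside 26.9% of all genes, and several of these are CpG-rich (*Ddx4*, *Sycp1*, *Sycp3*, *Mael*).

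Between the epicardial stages the number of promoters called barely moved. The share called was 63.2%, 63.5% and 63.2% in the 3 E11.5 libraries and 60.9%, 62.6% and 62.1% in the 3 E17.5 libraries. Every E17.5 library was below every E11.5 library. The difference was -1.44 percentage points (two-sided exact permutation test, p = 0.10, the smallest that 3 against 3 libraries allow, and 0.171 after Benjamini-Hochberg adjustment over 12 tests). The E17.5 lists were also shorter, and with equal numbers of top peaks from every library the difference was 0.0109 points.

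Promoters called at 1 stage alone were few and weak. All 3 E11.5 and no E17.5 libraries called 654 promoters of 446 genes (1.26% of all promoters), with a median percentile of 35.1, and 273 of them were called in all 3 EPDC libraries. The reverse held for 230 promoters of 169 genes (0.441%), with a median percentile of 43.6, of which 36 were called in all 3 EPDC libraries and 160 in none. Of the 230, 89.1% were CpG-low, against 65.0% of the 654. With equal numbers of top peaks these counts became 418 and 433, and without E17.5 replicate 1 the second was 394. The excess at E11.5 thus did not hold with lists of equal length.

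Levels were compared by limma over the 34241 promoters called in at least 3 libraries. At an adjusted p under 0.05 (Benjamini-Hochberg), 1333 (3.89%) were higher and 4911 (14.3%) lower at E17.5. The split depended on the scale. Calls higher at E17.5 made up 21.4% of all calls on the percentile scale, 46.5% after quantile normalization, 62.2% with equal numbers of top peaks, 59.1% on log2(fold enrichment + 1) and 71.7% on log2(depth-normalized score + 1), so which direction held most of the calls depended on the scale. Without E17.5 replicate 1, 2 or 3 the higher calls were 856, 664 and 656, and without E11.5 replicate 2 the lower calls were 2897.

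A second limit was the window. The largest differences came from strong peaks whose edge entered the window in every library of 1 stage and in none of the other. *Asl*, argininosuccinate lyase of the urea cycle, was at 0 in all E11.5 libraries and at 93.8, 95.3 and 92.8 at E17.5, with its summits a median 644 bp from the start, and with 1000 bp on each side it was no longer called (adjusted p = 0.872, limma). Of the 20 promoters with the largest non-overlapping differences, 10 in each direction, *Nlk* alone was still called when the summit had to lie inside the window. The summits of the others lay 644 to 2365 bp away. The gene lists further below keep the calls of the 500 bp window alone. The promoters named below by the size of their change had to pass 4 rules of assigning a peak. These were windows of 250, 500 and 1000 bp, and summits inside 500 bp. Under each rule they had to be called in the same direction, with no overlap between the stages. There were 984 such promoters higher at E17.5 (2.87% of those tested, 557 genes) and 3719 lower (10.9%, 2035 genes). On all of the other 4 scales named above, 497 of the 984 and 523 of the 3719 were also called in the same direction, and 0 and 2 were called in the opposite direction on any of them. Single libraries carried many of these calls. The 984 became 654 and 635 without E11.5 replicate 1 or 3 and 585, 511 and 518 without E17.5 replicate 1, 2 or 3, and the 3719 became 2297 without E11.5 replicate 2. With any 1 of the 9 libraries left out in turn, 431 and 2114 were called every time. The median promoter moved by 17 percentile points in the first set and fell by 11.4 in the second, and 110 and 316 had no peak at all in the lower stage. Of the 984, 85 had a peak in the 3 E17.5 libraries alone, and of the 3719, 56 in the 3 E11.5 libraries alone. Such promoters entered the test only through the stage where they were high and had to differ, so their levels below are a description. CpG-low promoters made up 41.5% and 24.6% of them, against 15% of promoters tested.

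The 15 promoters with the largest gain at E17.5, 1 per gene, were those of *Nlk*, *Cmbl*, *C1s1*, *Adgrd1*, *Mgst1*, *Msln*, *Ndel1*, *Serpinb5*, *Synj1*, *Kcnk16*, *Fam53b*, *Ergic1*, *Mrgprf*, *C3* and *Plet1*. A CpG-low promoter of *Nlk*, a protein kinase, was at 0 in all E11.5 and all EPDC libraries and at 88.0, 90.4 and 88.9 at E17.5. *C1s1*, a complement protease, was at 0, 0 and 11 at E11.5 and at 81.5, 87.3 and 85.3 at E17.5. *Plet1*, an epithelial surface protein, was at 12.4, 11.1 and 9.52 at E11.5, at 74.3, 81.2 and 82.4 at E17.5 and at 0 in EPDCs (difference 68.3 ± 3.20 SE, limma adjusted p = 4.81e-06). The stages did not overlap at any of these, which the rule that named them required. *Msln*, which encodes the surface protein mesothelin, was at 74.2, 85.9 and 75.5 at E17.5 and at 0 in the other 6 libraries. *C3*, the central component of complement, was at 67.8, 73.6 and 67.2 at E17.5 and at 0 in the other 6. *Mgst1*, a membrane glutathione transferase, was at 74.8, 81.5 and 80.1 at E17.5 and at 0 elsewhere. *Cmbl*, *Serpinb5*, *Ergic1* and *Mrgprf* were likewise at 0 in every E11.5 and EPDC library and at 58.7 to 82.5 at E17.5. *Nlk*, *Msln*, *C3*, *Mgst1* and these 4 are among the promoters that entered the test through E17.5 alone, and no test is given for them. For *Mgst1*, 7 other promoters of the gene, and for *Cmbl* 2, were called in all 9 libraries, so an accessible start was present at both stages. *Msln*, *C3*, *C1s1* and *Plet1* had no other promoter called in all 9.

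The 10 promoters with the largest loss at E17.5 were those of *BC053393*, *Htr5a*, *Dpp6*, *Gucy2d*, *Prox2*, *Tekt3*, *St6gal2*, *Fut9*, *Nmur2* and *Nfib*. *BC053393* was at 71.3, 84.2 and 86.7 at E11.5, at 0 in all E17.5 libraries and at 59.9, 40.3 and 49.6 in EPDCs. *Htr5a*, a serotonin receptor, was at 78.0, 79.1 and 78.1 at E11.5, at 0 at E17.5 and at 59.9, 48.6 and 47.5 in EPDCs (difference -78.4 ± 3.84 SE, limma adjusted p = 6.12e-06). *Gucy2d*, a guanylate cyclase of olfactory neurons, went from 72.3, 74.6 and 75.4 to 0 and was at 80.1, 81.7 and 83.2 in EPDCs. In these 3 cases every E11.5 library, as the naming rule required, and every EPDC library lay above every E17.5 library. *Dpp6*, an auxiliary subunit of potassium channels, went from 72.0, 74.1 and 79.0 to 0, with 68.7, 57.3 and 61.1 in EPDCs. *Prox2*, a homeobox gene, went from 71.4, 70.4 and 80.5 to 0, with 73.5, 38.3 and 44.1 in EPDCs. *Fut9*, a fucosyltransferase, went from 76.0, 75.2 and 67.2 to 0. The EPDC libraries did not always side with E11.5, since at *Tekt3*, a tektin of cilia and flagella, the values were 73.6, 77.5 and 72.5 at E11.5, 0, 2.40 and 0 at E17.5, and 0, 0 and 49.6 in EPDCs. *St6gal2*, a sialyltransferase with a CpG-high promoter, went from 75.8, 73.3 and 76.3 to 0, 5.92 and 0. A CpG-low promoter of *Nfib*, a nuclear factor I gene, went from 90.4, 88.1 and 89.3 to 3.74, 30.8 and 16.4, while 3 other *Nfib* promoters were called in all 9 libraries. The genes were named by the size of their change, and no theme was tested.

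Among the fixed lists, each gene was read at the promoter with the highest mean percentile over the 9 libraries. Mural genes were lower at E17.5 for 6 of 8 and higher for 0, beside 14.3% lower and 3.89% higher among all promoters tested, with a median difference of -15.3 points, against -0.55 over all promoters tested. *Tagln*, a smooth muscle actin-binding protein, was at 90.7, 91.2 and 92.9 at E11.5 and at 78.6, 77.0 and 78.4 at E17.5 (adjusted p = 0.000507, limma). *Myh11*, smooth muscle myosin, was at 91.2, 91.1 and 93.1 against 71.9, 80.01 and 76.1 (adjusted p = 0.00193). *Rgs5*, a pericyte gene, was at 74.6, 84.2 and 71.7 against 13.2, 50.5 and 25.3 (adjusted p = 0.0055). For these 3 the stages did not overlap. *Notch3*, *Acta2* and *Cnn1* were the other 3. *Notch3* and *Cnn1* lost their calls with equal numbers of top peaks (adjusted p = 0.0856 and 0.0906, limma), and *Cnn1* after quantile normalization (0.112). In a fit of the 6 epicardial libraries alone *Notch3*, *Acta2* and *Cnn1* were not called (adjusted p = 0.0539, 0.0543 and 0.0975). *Notch3* was not called without E11.5 replicate 2, nor *Acta2* without E11.5 replicate 3 or without E17.5 replicate 3, and *Cnn1* was lost without E11.5 replicate 1 or 3 or E17.5 replicate 1 or 3. *Acta2* turned to higher at E17.5 when the summit had to lie inside the window (adjusted p = 0.0638). On log2(fold enrichment + 1) none of the 6 was called.

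Of the 15 epicardial genes, 4 were higher at E17.5 (*Msln*, *Krt7*, *Krt8*, *Krt18*) and 3 lower (*Wt1*, *Bnc1*, *Pdpn*), beside the 3.89% and 14.3% of all promoters, and *Msln* had to differ once it entered the test. *Krt18*, a keratin of simple epithelia, was at 56.1, 65.1 and 49.3 at E11.5 and at 83.6, 84.9 and 81.6 at E17.5 (adjusted p = 0.00973, limma). Its call was lost on log2(fold enrichment + 1) (adjusted p = 0.138). *Krt8*, its partner, was at 41.7, 27.8 and 27.9 against 82.6, 85.7 and 76.9, but with 1000 bp on each side it was called lower (adjusted p = 0.0373, limma), *Krt7* was then not called, and on log2(fold enrichment + 1) *Krt8* was not called either (adjusted p = 0.17). *Wt1*, the transcription factor whose locus carries the Cre, was at 95.2, 96.8 and 96.7 against 89.9, 89.8 and 88.2 (adjusted p = 0.00484). *Pdpn*, used for the sort, was at 89.2, 88.6 and 89.2 against 81.9, 80.5 and 80.6. *Wt1* and *Pdpn* ranked above the 80th percentile in all 6 libraries and were not called on log2(fold enrichment + 1) or on the depth-normalized score, nor *Pdpn* with equal numbers of top peaks (adjusted p = 0.0697, limma). *Bnc1* lost its call without E11.5 replicate 2. Of 14 mesenchymal genes, *Postn* and *Col1a2* were higher and *Dcn* lower. On log2(fold enrichment + 1) *Col1a2* and *Dcn* were not called (adjusted p = 0.22 and 0.0716, limma). Of 9 neuronal genes tested, 5 were lower and 0 higher (*Snap25*, *Syt1*, *Gad1*, *Gad2*, *Map2*), beside 14.3% lower among all promoters, of which *Snap25* and *Gad1* turned direction with another window and *Map2* on log2(fold enrichment + 1). The call of *Gad1* was lost when any 1 of the 6 epicardial libraries was left out, that of *Gad2* without E11.5 replicate 2 or 3, and that of *Map2* without E11.5 replicate 2. *Gad2* was also not called with equal numbers of top peaks (adjusted p = 0.0696, limma), after quantile normalization (0.0628), on log2(fold enrichment + 1) (0.455) or in the 6 epicardial libraries alone (0.0631), and *Syt1* not on log2(fold enrichment + 1) (0.972). *Map2* was not called with equal numbers (0.0649) or on the depth-normalized score (0.246), nor *Gad1* after quantile normalization (0.0585) or on log2(fold enrichment + 1) (0.188). A replicate block in the 6 epicardial libraries, whose numbers do not pair them, also left *Myh11*, *Rgs5*, *Notch3*, *Acta2*, *Cnn1*, *Krt7*, *Krt18*, *Bnc1*, *Pdpn*, *Col1a2*, *Syt1*, *Gad2* and *Map2* without a call (adjusted p = 0.0555 to 0.179, limma).

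Against the epicardium, the EPDC libraries called 63.0% (E12.5), 63.1% and 64.9% (E13.5) of promoters, and the 6 epicardial libraries 60.9% to 63.5%. The groups overlapped, and the difference of 1.03 points was not significant (two-sided exact permutation test over 84 assignments, p = 0.25). Among CpG-high promoters the EPDC libraries were above all epicardial ones, with means of 99.2% against 96.8% (p = 0.0119, the smallest this exact permutation test allows, and 0.143 after adjustment over 12 tests). Both comparisons, of stages and of populations, use the same epicardial libraries and are not independent of each other.

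These differences lay largely in long stretches that only EPDC lists covered. In 288 stretches, with a median length of 56.5 kb, no epicardial library had any peak while every EPDC library had a peak above the 80th percentile. They held 1306 start sites of 622 genes. EPDC libraries called 766 to 773 of these promoters, and epicardial libraries 46 to 54, by peaks outside the stretch that the window reached. With these promoters left out, the difference in the share called turned to -0.357 points (two-sided exact permutation p = 0.643), and that among CpG-high promoters fell to 0.362 points, with means of 99.2% in EPDCs against 98.8% and with overlapping groups (p = 0.226). The stretches were chosen for EPDC peaks where epicardial lists had none, so leaving them out had to lower the EPDC share. The direction of this change is therefore no test. No stretch of the reverse kind was found (0 with no EPDC peak and a peak above the 80th percentile in every epicardial list). That search asks for such a peak in more lists. Against E11.5 alone, 8 stretches lacked EPDC peaks and held 0 start sites, while 307 lacked E11.5 peaks and held 1321. Between the epicardial stages, 64 stretches lacked E17.5 peaks and 55 lacked E11.5 peaks, with 18 and 16 start sites. Within them lay promoters that nearly every cell uses. *Actg1*, cytoplasmic actin, was at 0 in all 6 epicardial libraries and at 82.3, 83.5 and 82.8 in EPDCs. *Eef2*, a translation elongation factor, was at 0 in the 6 and at 66.2, 71.5 and 75.8, and *Atf4* at 0 and at 90.8, 90.9 and 91.3. The population and a difference in how the 2 sets of lists were made cannot be told apart here, and promoters with a start in such a stretch were left out below where said. All 10 promoters with the largest non-overlapping gain in EPDCs (*Hjurp*, *Ggct*, *Atp5g1*, *Dapk3*, *Derl1*, *Stard9*, *Xpo1*, *Dcakd*, *Nmt1* and *Copz1*) lay in these stretches.

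The same holds for promoters called in 1 population alone. All EPDC and no epicardial libraries called 820 promoters of 443 genes (1.57% of all), with a median percentile of 91.6, and 702 of them lay in these stretches, which left 118. All 6 epicardial and no EPDC libraries called 147 promoters of 106 genes (0.282%), with a median percentile of 41.5, of which 89.1% were CpG-low. Without EPDC E13.5 sample 2 the 147 became 260. Within EPDCs, 32393 promoters were called in all 3 libraries, 105 at E12.5 and in neither E13.5 library, and 424 in both E13.5 libraries and not at E12.5. The lists of E13.5 sample 2 and of E12.5 were the longest and the shortest of the 3, at 103205 and 78172 peaks, and 1 library at E12.5 allows no test of the day.

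By limma, 3326 of 34241 promoters were higher (9.71%) and 4406 lower (12.9%) in EPDCs. Without the stretches the counts were 2494 and 4502. The split again moved with the scale, from 38.0% higher calls after quantile normalization to 85.5% on log2(fold enrichment + 1). Without EPDC E12.5 sample 1, E13.5 sample 1 or E13.5 sample 2 the higher calls were 2049, 1173 and 1666, and the lower calls 2779, 2158 and 7229. Under all 4 rules of assigning a peak, and with the stretches left out, 1072 promoters of 665 genes were higher (3.2% of 33480) and 2400 of 1251 genes lower (7.17%). On all of the other 4 scales, 872 of the 1072 and 585 of the 2400 were also called in the same direction, and 2 and 42 were called in the opposite direction on any of them. Without EPDC E13.5 sample 1 the 1072 became 538, and the 2400 ranged from 1611 to 2336 with 1 library left out. With each library left out in turn, 513 and 1540 were called every time. Of the 1072, 81 had a peak in EPDC libraries alone, and of the 2400, 109 in epicardial libraries alone, so that these had to differ once they entered the test. The median differences were 12.9 and -7.02 points.

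Promoters lower in EPDCs included those of *Muc16*, *Dmkn* and *Il17re*. *Muc16*, a mesothelial mucin, was at 80.6, 84.4 and 75.5 at E11.5, at 75.8, 82.8 and 82.5 at E17.5 and at 14.0, 0 and 0 in EPDCs (difference -75.6 ± 4.09 SE, limma adjusted p = 1.31e-06). *Dmkn*, the epithelial protein dermokine, was at 67.1, 68.4 and 62.0 at E11.5, at 85.7, 90.2 and 80.2 at E17.5 and at 0 in all EPDC libraries. *Il17re*, an interleukin 17 receptor subunit, was at 72.9 to 89.4 in the 6 epicardial libraries and at 0, 0 and 5.68 in EPDCs. No EPDC library reached the lowest epicardial one at any of these, which the naming rule required. *Chst4*, *Prr15l*, *Mylk2*, *Tm4sf5* and *Vtcn1* were at 0 in every EPDC library and at 40.3 or above in every epicardial one. *Neu2*, a sialidase, was at 52.0, 82.0 and 78.5, then 81.5, 86.3 and 81.9, and at 18.8, 0 and 0 in EPDCs. *Dixdc1* was at 69.6 to 78.6 in epicardium and at 0 in EPDCs, while 5 other *Dixdc1* promoters were called in all 9 libraries. Among these 2400 promoters the AP-1 motif was present in 8.58%, and in 9.86% of those higher at E17.5, against 4.77% of promoters tested. It was present in 3.73% of those higher in EPDCs and 4.22% of those lower at E17.5. No test was made of these shares, and CpG content differed between the sets and the promoters tested.

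Promoters higher in EPDCs were named where at least 1 epicardial library called them, so that some epicardial signal was measured at each. A CpG-low promoter of *Smad3*, a transducer of TGFβ signals, was at 0 in all E11.5 libraries, at 28.0, 9.39 and 21.7 at E17.5 and at 76.2, 84.3 and 85.5 in EPDCs (difference 72.1 ± 4.33 SE, limma adjusted p = 3.05e-06), while 2 other *Smad3* promoters were called in all 9. *Acoxl*, related to acyl-CoA oxidases, was at 0 at E11.5, at 56.9, 48.3 and 57.4 at E17.5 and at 84, 93.3 and 93.5 in EPDCs. *Kcne4*, a potassium channel subunit, was at 0 in 4 epicardial libraries, at 11 and 19.8 in the other two, and at 66.2, 69.5 and 74.7 in EPDCs. *Mettl21e* was at 9.36 to 29.8 in epicardium and at 76.9, 87.6 and 87.0 in EPDCs. At each of these the EPDC values lay above all epicardial ones, again a condition of the naming rule. *Ifit3* and *Ifit3b*, interferon-induced genes, and *Agt*, angiotensinogen, were at 0 in all 6 epicardial libraries and between 60.9 and 83.9 in EPDCs, outside the stretches as defined, and they entered the test through EPDCs alone. Most of the 15 largest gains in EPDCs had this pattern, seen also at *Actg1* within the stretches. Those of *Tsr1*, *Sgsm2*, *Dcaf5*, *Pola2*, *Ifngr2* and *Bloc1s2* were at 0 in all 6 and at 56.6 to 86.1 in EPDCs.

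**Figure D4:**
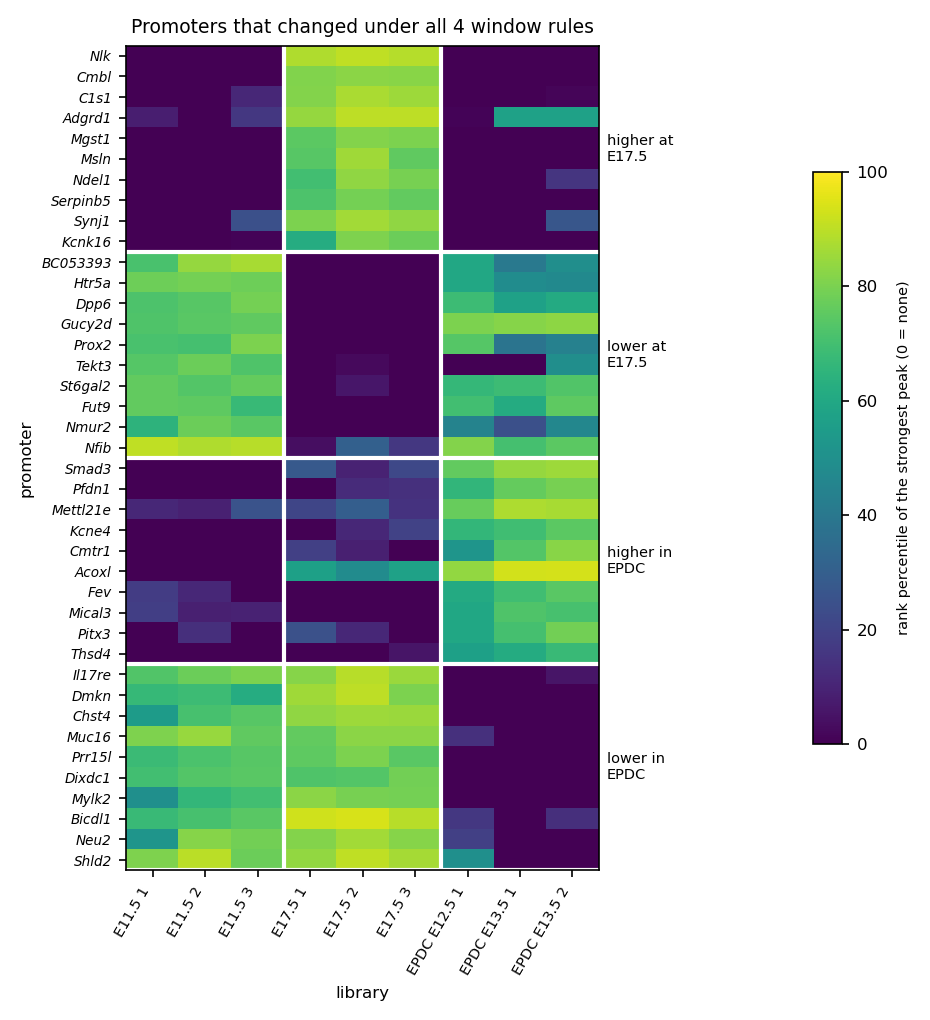
Percentile of the strongest peak (colour, 0 where none) in each of the 9 libraries for the 10 promoters of each direction with the largest change under all 4 rules, those higher in EPDCs being limited to promoters called in at least 1 epicardial library. Each block is dark on one side of its contrast, as for *Msln* (0 at E11.5, 74.2 to 85.9 at E17.5) and *Muc16* (75.5 to 84.4 in epicardium, 0 to 14.0 in EPDCs).

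Of the 15 epicardial genes, 10 were lower in EPDCs and 0 higher, beside 12.9% lower and 9.71% higher among all promoters tested, with a median difference of -19.5 points, against -0.28 over all promoters tested. *Upk3b* was at 98.3, 98.9 and 98.0 at E11.5, at 96.3, 97.2 and 96.8 at E17.5 and at 69.9, 19.7 and 41.4 in EPDCs (adjusted p = 0.00264, limma), so its promoter was called in all 9 libraries although its rank fell. *Upk1b* was at 87.2 to 96.8 in epicardium and at 81.1, 62.3 and 73.4 in EPDCs (adjusted p = 0.0044), a call lost on log2(fold enrichment + 1) (0.411). *Krt7*, *Krt8*, *Krt18*, *Krt19*, *Msln*, *Muc16*, *Aldh1a2* and *Lrrn4* were the other 8. *Msln* had a peak at E17.5 alone, so it had to differ once it entered the test, and its EPDC values equalled those at E11.5, all 0. *Krt18* in EPDCs (54.4, 38.0 and 40.2) overlapped E11.5 as well and lay below E17.5. *Krt18* was not called on log2(fold enrichment + 1) (adjusted p = 0.581, limma), *Krt19* was called higher in EPDCs on that scale (0.00927), *Aldh1a2* turned to a higher level there without a call (0.899), and *Lrrn4* was called higher with 1000 bp on each side (0.00209). *Krt19* also lost its call without E11.5 replicate 2 or 3, E17.5 replicate 2 or EPDC E13.5 sample 1. *Wt1* was at 96.8, 95.0 and 92.2 in EPDCs (adjusted p = 0.219), and *Tcf21* (0.93), *Tbx18* (0.436), *Bnc1* (0.238) and *Pdpn* (0.801) were not called either, although the EPDC gate excludes surface PDPN. On log2(fold enrichment + 1), where 85.5% of all calls were higher, *Bnc1* and *Pdpn* were called higher in EPDCs (adjusted p = 0.00047 and 0.00092, limma).

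Of 14 mesenchymal genes 3 were higher in EPDCs and 4 lower, beside the 9.71% and 12.9% of all promoters. *Postn*, periostin of the fibroblast matrix, was at 0 at E11.5, at 40.9, 45.2 and 39.2 at E17.5 and at 67.9, 75.9 and 79.0 in EPDCs (adjusted p = 3.26e-06, limma). *Twist1*, a factor of epithelial-mesenchymal transition, was at 81.5 to 89.2 in epicardium and at 93.7, 94.3 and 94.5 in EPDCs (adjusted p = 0.00856). At both the populations did not overlap. *Col1a2* was higher too, with 81.1, 86.6 and 85.7 in EPDCs, which overlapped E17.5 (82.5 to 84.5) and lay above E11.5 (61.3 to 66.3), and the call was lost without E13.5 sample 1. *Zeb2*, another such factor, was lower at this promoter, with 78.4 to 88.9 against 66.9, 55.5 and 62.8 (adjusted p = 0.000611), and 7 of its 17 promoters shared these values, read from the same peaks through neighbouring windows, so they are 1 measurement. Another 6, which again shared 1 set of values, were higher, with 0 to 41.1 in epicardium against 46.6, 61.2 and 59.3 in EPDCs (adjusted p = 0.0102), so the gene had start sites that moved in both directions. *Dcn*, *Zeb1* and *Pdgfra* were also called lower, and *Zeb1* and *Pdgfra* in EPDCs overlapped E11.5. *Dcn* turned to higher on log2(fold enrichment + 1). *Zeb1* was not called without EPDC E13.5 sample 1, nor on log2(fold enrichment + 1) (adjusted p = 0.195, limma), nor when the summit had to lie inside the window, where the difference was -1.92 points (0.806). *Pdgfra* lost its call without E11.5 replicate 1 or 2, any E17.5 replicate, EPDC E12.5 sample 1 or E13.5 sample 1, and it turned to higher with 250 bp on each side. *Snai1*, *Snai2* and *Fn1* ranked at 93.8 or above in all 9 libraries and were not called. Of 8 mural genes, *Tagln*, *Acta2* and *Cspg4* were higher and 0 lower, against the same background. *Tagln* in EPDCs (92.4, 89.9 and 93.5) overlapped E11.5 (90.7, 91.2 and 92.9), and its call against the mean of both stages rested on the lower E17.5 values (78.6, 77.0 and 78.4). *Acta2*, smooth muscle actin, was at 57.9 to 84.3 in epicardium and at 87.2, 94.7 and 94.3 in EPDCs (adjusted p = 0.00601), but turned to lower, without a call, when the summit had to lie inside the window. The call of *Cspg4* was lost without E11.5 replicate 1 or 2, E17.5 replicate 1 or 2, or any EPDC library.

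**Figure D5:**
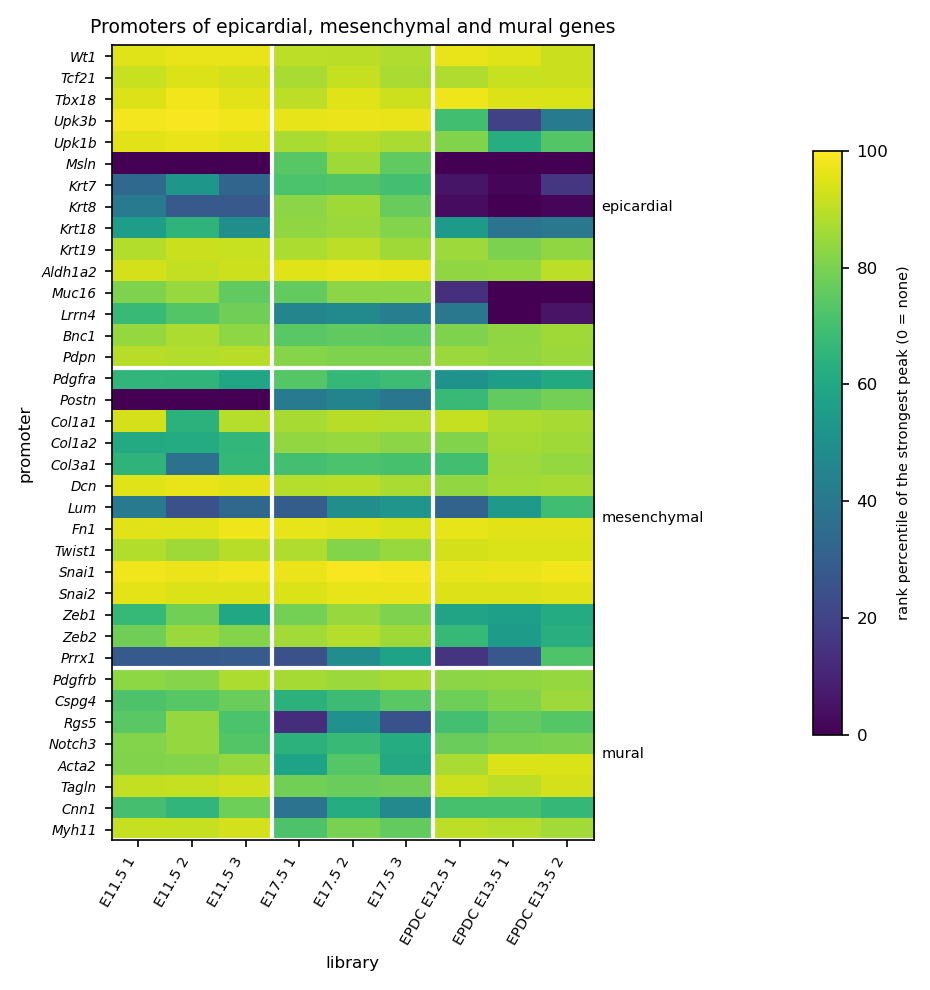
Percentile of the strongest peak (colour, 0 where none) in each library for 15 epicardial, 14 mesenchymal and 8 mural genes. Each gene is shown at its promoter with the highest mean percentile. *Wt1*, *Tcf21*, *Tbx18*, *Fn1*, *Snai1* and *Snai2* are bright in all 9 columns, while *Upk3b*, *Muc16* and the keratins darken in the EPDC columns and most mural rows darken in the E17.5 columns.

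Markers of other cell types moved with some of these results. Of 13 cardiomyocyte genes, *Tnnt2*, *Myl3*, *Myl4*, *Ryr2* and *Nkx2-5* were called in all 9 libraries, *Myh6* had no peak in any, and *Ttn*, *Tnni3* and *Myl2* had a peak in 1 or 2 of the E11.5 libraries and in none of the others. *Myl4*, a myosin light chain, ranked at 95.4 to 99.1 throughout. *Tnnt2* was at 83.1, 87.4 and 85.2 at E11.5, at 59.2, 55.0 and 62.0 at E17.5 and at 74.6, 77.2 and 80.9 in EPDCs. *Myl7* was at 29.7 to 32.5 at E11.5, at 53.6 to 69.6 at E17.5 and at 0 in EPDCs, and *Myh7* was at 19.1 to 55.7 in epicardium and at 0 in EPDCs. *Actc1*, cardiac actin, was at 32.4, 0 and 0 at E11.5, at 0 at E17.5 and at 25 to 31.5 in EPDCs, a call lost with 1000 bp on each side, with equal numbers of top peaks, after quantile normalization and when any library but E11.5 replicate 1 was left out. Of 9 neuronal genes tested, 5 were higher in EPDCs (*Snap25*, *Syt1*, *Neurod1*, *Gad2*, *Map2*) and *Slc17a7* was lower, beside 9.71% and 12.9% of all promoters. *Neurod1*, a factor of neurons and endocrine cells, was at 0 to 21.3 in epicardium and at 20.1, 38.2 and 42.8 in EPDCs, so the groups overlapped. *Snap25* in EPDCs (56.1, 66.6 and 75.9) overlapped E11.5 (72.0, 54.9 and 48.9) and lay above E17.5 (0, 4.97 and 0). *Syt1* in EPDCs (93.6, 93.3 and 92.4) likewise overlapped E11.5 (92.6, 94.1 and 96.8) but not E17.5 (81.2, 85.4 and 79.5), and *Gad2* and *Slc17a7* overlapped E11.5 alone. *Map2*, a neuronal microtubule protein, was at 82.2 to 90.3 in epicardium and at 93.9, 92.8 and 93.0 in EPDCs, above both stages. *Snap25* turned to lower with 1000 bp on each side, *Gad2* was not called without EPDC E13.5 sample 1, and *Slc17a7* not without any 1 of the 3 EPDC libraries, E11.5 replicate 3 or E17.5 replicate 2 or 3. *Syt1* was lost without 7 of the 9 libraries, with 250 bp on each side, with the summit inside the window and on log2(fold enrichment + 1). *Kdr*, a receptor of endothelial growth factor, was at 85.8 to 87.3 in epicardium and at 88.8, 91.3 and 91.9 in EPDCs (adjusted p = 0.0343, limma), a call lost when any 1 of the 9 libraries or the stretches were left out. Between the stages 1 of 7 endothelial genes tested was lower, beside 14.3% of all promoters. It was *Cldn5*, at 70.5, 74.2 and 76.4 at E11.5 and at 52.5, 58.4 and 56.2 at E17.5 (adjusted p = 0.00901, limma). On log2(fold enrichment + 1) it was not called (adjusted p = 0.609, limma). In sorted bulk samples, fewer cells with an open promoter and less opening per cell cannot be told apart, and the part of other cell types in the results was not tested.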

How the data were processed

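Bulk ATAC-seq of 10 samples gave 9 peak lists. According to the methods and the submitters' processing notes, the authors ran the nf-core atacseq pipeline on mm10, discarded reads that were duplicated, mapped to several places or fell in blacklisted or mitochondrial sequence, and used MACS2 2.2.9.1 to find peaks from paired fragments, with a q-value of 0.01. The deposited lists give, for each summit of a peak, a −log10 p-value, a −log10 q and a fold enrichment over local background, which the authors did not normalize between libraries. Reads and their counts were not used here, so depth is unknown.

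Each peak was taken once, with its strongest summit, and ranked by −log10 p on chromosomes 1 to 19, X and Y. Percentiles move with the number of weak peaks in a list. Levels were fitted with limma 3.58.1 (lmFit, eBayes with trend, R 4.3.3) on all 9 libraries in 3 groups, for promoters called in at least 3 libraries, with the contrast of EPDCs against the mean of both epicardial stages and Benjamini-Hochberg adjustment over all 34241 promoters tested. Shares per library were compared by exact permutation tests. The fit and the overlaps were tested on simulated data. The labels call the samples biological replicates, each from pooled hearts, and each group has 3 libraries, which limits its SD and SE. Same-numbered replicates did not deviate together across stages (r of -0.0369, 0.0921 and -0.0841), so numbers were not used as pairs.

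The members and gene lists were chosen with earlier results of these data known. Named were the 10 genes with the largest non-overlapping difference in each direction and the genes of the lists, leaving out symbols that begin with Gm or end with Rik. Some genes that the rule or the lists name are not reported here. After the data were seen, that rule was repeated with 15 genes for promoters called under all 4 rules of assigning a peak, with 10 more where an epicardial library had to call the promoter, and the promoters printed for each direction came from this repeat. The stretches seen in EPDC lists alone were also defined after the data were seen. The alternatives were other windows, a summit inside the window, a −log10 q of at least 5, equal numbers of top peaks (75234 from each list), quantile normalization, log2(fold enrichment + 1), log2(depth-normalized score + 1), promoters called in at least 1 library, transcripts tagged basic, the 6 epicardial libraries alone, and each library left out. Python 3.11.15, numpy 2.4.6, pandas 2.3.3, scipy 1.17.1 and matplotlib 3.10.9 were used.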

Additional observations from a re-analysis of the deposited data

How the results depend on the processing

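Peak lists without reads limit these results: a promoter below the threshold has no level, and 3 libraries per group leave the counts of calls dependent on single libraries. Of 208 alternatives run on the counts and shares, 174 kept the direction and the side of the threshold, or stayed within 1.5 times the reported count. Among the 174 are 12 runs of the stage share, where so few libraries allow no p under 0.05. In those runs only the direction could change. The cause of the other changes was not tested, except where fewer libraries were fitted.

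With equal numbers of top peaks, the share of promoters called differed between stages by 0.0109 points (exact permutation p = 0.90) in place of -1.44, and between EPDCs and epicardium by 1.35 points (p = 0.0119) in place of 1.03. Promoters called at E11.5 alone fell to 418 and those at E17.5 alone rose to 433. Higher calls at E17.5 were 5025 with equal numbers, 3577 after quantile normalization and 7854 on the depth-normalized score, and lower calls 3058 with equal numbers, 1200 on log2(fold enrichment + 1) and 3108 on the score. Higher calls in EPDCs were 9312 on log2(fold enrichment + 1) and 5172 on the score, and lower calls 1575 and, after quantile normalization, 6796. The median difference of all promoters between stages went from -0.55 to 0.56 percentile points with equal numbers.

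With 1 library left out, the stage share ranged from -1.79 to -0.961 points and the population share from 0.418 to 1.37. Promoters called in all libraries left ranged from 30563 to 30767 and in none from 16721 to 16909. The counts at E11.5 alone ranged from 696 to 814, at E17.5 alone from 237 to 394, in epicardium alone from 148 to 260 and in EPDCs alone from 821 to 921. Limma calls ranged from 656 to 1827 higher and 2897 to 5624 lower at E17.5, and from 1173 to 3133 higher and 2158 to 7229 lower in EPDCs.

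A replicate block over the 6 epicardial libraries gave 462 higher and 1434 lower calls at E17.5, against 1572 and 4480 in the same libraries without it. The samples share a number only, with no pairing in the labels, and the block takes degrees of freedom from 6 libraries.

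Of the alternatives chosen after seeing the data, leaving out the stretches seen in EPDC lists alone turned the population share to -0.357 points, left 0.362 points among CpG-high promoters and left 118 promoters called in EPDCs alone, and with the summit inside the window as well there were 2079 higher calls. The requirement of all 4 rules left 1072 higher and 2400 lower in EPDCs.

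Among named promoters, those chosen under all 4 rules (68 in all), a choice that used the windows and the summit rule, kept direction and call in 1067 of 1067 runs of the alternatives it did not use, and those with a peak in the higher group alone had to differ. Others turned. With 1000 bp on each side the stage differences became -4.72 for *Sardh*, -0.361 for *Asl*, -3.01 for *Sil1*, -0.521 for *Sub1*, -2.55 for *Brd2*, -0.959 for *Muc1*, 2.23 for *Ndrg1*, -9.00 for *Krt8* and 4.79 for *Snap25*, and the EPDC differences 3.79 for *Necab1*, 20.8 for *Lrrn4* and -5.36 for *Snap25*. With the summit inside the window, with or without the stretches, *Acta2* became 15.6 between stages and -10.9 in EPDCs, and *Gad1* 3.60 between stages. With 250 bp, *Gad1* became 3.31 and *Pdgfra* 5.56 in EPDCs. On log2(fold enrichment + 1), *Cldn5* became 0.12, *Dazl* 0.13 and *Map2* 0.17 between stages, and *Krt19* 0.57, *Aldh1a2* 0.012, *Dcn* 0.056 and *Myl4* 0.15 in EPDCs. Of these, *Sardh* and *Krt8* between stages and *Necab1*, *Lrrn4* and *Krt19* in EPDCs were called in the opposite direction (limma).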
